A study of Homo sapiens with 4 samples.

Results

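Integrin and laminin genes were described across 4 libraries of polyadenylated RNA from cells labelled as MG63, a human osteosarcoma line. The integrin and laminin families were picked with earlier results of these data known. Every row named for an integrin alpha or beta subunit or for a laminin alpha, beta or gamma chain was then taken. That choice by symbol, whatever the row's values, gave 38 of the 57905 gene identifiers in the deposited table. They comprised 18 integrin alpha subunits, 8 beta subunits and 12 laminin chains. Of these 38 genes, 22 reached a mean of 1 FPKM (fragments scaled to gene length and library size) over the 4 libraries and were tested. The control group, siNC, held 2 libraries from cells given a control siRNA. The knockdown group, siKLF11, held 2 libraries from cells given an siRNA against KLF11, a Krüppel-like zinc finger transcription factor. Both groups were the same line, carried no other stated change and were cultured for 48 hours after transfection. The labels do not say that the 2 replicates of a group were separate cultures, so p-values cover no more than the spread among these 4 libraries, and that spread may be technical.

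Integrins are membrane receptors made of 1 alpha and 1 beta subunit that link the extracellular matrix to the actin cytoskeleton, and the alpha subunit largely sets which ligand is bound. Laminins are secreted trimers of 1 alpha, 1 beta and 1 gamma chain that build basement membranes and are bound by integrins of the laminin-binding class. In osteosarcoma and other cells of mesenchymal origin, integrins that bind collagen and fibronectin are commonly described. Laminin with the LAMA1 or LAMA5 chain is typical of early embryonic and epithelial cells.

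Several defining markers of the labelled cell type were low or listed at 0. Of 14 osteoblast and osteosarcoma markers 8 were under a mean of 1 FPKM, among them RUNX2 (0.02 to 0.65 FPKM), SP7 (0 to 0.04 FPKM) and BGLAP, and IBSP was listed at 0 in every library. The other 6 were above that level, with ALPL at 79.3 to 106 FPKM and COL1A2 at 115 to 136 FPKM. Of the lists for other cell types, 11 of 12 pluripotency markers and 11 of 12 early endoderm markers reached 1 FPKM. The pluripotency markers summed to 1656 and 1658 FPKM in the control and 2583 to 3092 FPKM in the KLF11 siRNA libraries, and the endoderm markers to 5569 to 5576 and 1623 to 3553 FPKM. POU5F1 carried most of the first difference, since the list without it summed to 1472 and 1479 against 1729 and 1515 FPKM, and 7 of its 11 tested genes were called higher and 2 lower. CER1, which was not called, carried most of the second, and of 11 tested endoderm markers 5 were called lower and 2, EOMES and MIXL1, higher. All 12 epithelial markers reached 1 FPKM and summed to 2499 to 2705 FPKM in the controls against 1196 to 1454 FPKM with KLF11 siRNA, with 10 called lower and 0 higher. CLDN3, among those called lower, reached 1 FPKM only through the controls. Mesenchymal markers, of which 8 of 15 reached 1 FPKM, summed to 462 to 503 and 1021 to 1075 FPKM. COL3A1 was at 0 to 0.01 FPKM in the controls and at 1.40 and 0.95 FPKM with KLF11 siRNA. VIM, which went from 144 and 131 to 808 and 799.9 FPKM, carried the rise of the sum. Without VIM the list summed to 359 and 331 FPKM in the controls against 212 and 275 FPKM with KLF11 siRNA. Of the 8 tested genes of the full list 3 were called higher and 2, COL6A1 and S100A4, lower. Besides VIM those called higher were TWIST1, from a mean of 0.935 to 11.1 FPKM, and PDGFRB, from 0.465 to 4.26 FPKM. Both reached a mean of 1 FPKM, and so were tested, only through the KLF11 siRNA libraries. The genes named here from the marker lists were chosen after their values were seen. Fewer cells of a type and less RNA per cell cannot be told apart in such bulk libraries. These marker sums moved with the groups, and their part in the integrin and laminin results was not tested. KLF11 itself was at 12.3 and 12.4 FPKM in the controls against 5.49 and 6.74 FPKM with KLF11 siRNA, a log2 change of -0.92 (limma, adjusted p = 0.00951).

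Values below are FPKM in replicate order, and a fold is the ratio of the 2 group means. Tests are limma on log2(FPKM + 1) over all 15320 genes tested, adjusted by Benjamini-Hochberg, and genes with an adjusted p under 0.05 were called. A change on this scale understates that of low genes. The filter for testing, a mean of 1 FPKM, ran over all 4 libraries. A gene below 1 FPKM in either group could thus be tested through the other group alone. Such genes are part of the called shares given below. The depth of each library is unknown, since the table holds no counts.

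Promoter windows of 4 called members are shown, since KLF proteins are known to bind GC-rich boxes. The 4 genes were picked after their values were seen, and each had at least 44 FPKM in every control library. LAMA1 was also called and at such a level but had no window in the table. ITGA6, ITGA1 and ITGA2B were called and had windows too, which are not printed. Where a gene had several windows, the one with the most motif matches is given. They are the 250 bases before a RefSeq start site (build GRCh38.p14), read 5′ to 3′ on the gene's strand. Capitals mark the GC box GGGCGG, the CACCC box CACCC and the TEAD motif GGAATG, each searched on both strands.
ITGB1, minus strand of chr10:32958231-32958480: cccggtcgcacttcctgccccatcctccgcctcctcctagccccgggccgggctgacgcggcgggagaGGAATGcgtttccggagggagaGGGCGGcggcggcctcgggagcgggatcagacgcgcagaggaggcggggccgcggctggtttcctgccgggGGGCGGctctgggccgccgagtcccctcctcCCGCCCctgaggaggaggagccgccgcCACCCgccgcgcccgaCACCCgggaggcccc
ITGB5, minus strand of chr3:124887366-124887615: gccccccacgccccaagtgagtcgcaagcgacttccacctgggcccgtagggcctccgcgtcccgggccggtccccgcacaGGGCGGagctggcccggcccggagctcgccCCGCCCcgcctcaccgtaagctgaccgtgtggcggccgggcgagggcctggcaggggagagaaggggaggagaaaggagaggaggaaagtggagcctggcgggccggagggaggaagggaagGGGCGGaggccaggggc
ITGAV, plus strand of chr2:186589806-186590055: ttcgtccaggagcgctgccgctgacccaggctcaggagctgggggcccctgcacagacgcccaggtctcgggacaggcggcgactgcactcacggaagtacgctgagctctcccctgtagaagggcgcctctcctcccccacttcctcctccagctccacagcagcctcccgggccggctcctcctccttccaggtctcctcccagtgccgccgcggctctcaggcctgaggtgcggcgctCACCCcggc
LAMA5, minus strand of chr20:62367313-62367562: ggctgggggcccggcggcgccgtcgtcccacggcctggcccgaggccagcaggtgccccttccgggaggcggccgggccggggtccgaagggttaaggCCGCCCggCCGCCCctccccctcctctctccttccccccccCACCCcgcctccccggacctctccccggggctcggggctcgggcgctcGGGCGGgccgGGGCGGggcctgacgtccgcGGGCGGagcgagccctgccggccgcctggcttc
The ITGB1 window held 3 GC boxes, 2 CACCC boxes and 1 TEAD motif, and no base lay in 2 motifs at once in any of the 4 windows. That of ITGB5 held 3 GC boxes with neither other motif, that of LAMA5 5 GC boxes and 1 CACCC box, and that of ITGAV a single CACCC box. So genes that rose and genes that fell both had windows with such boxes. Start windows were found for 26 of the 38 members, 33 windows in all. A GC box was in 51.5% of them against 42.6% of all 35116 windows of the same length, a CACCC box in 66.7% against 54.7% and a TEAD motif in 12.1% against 11.9%. The windows shown for ITGB1, ITGB5, ITGAV and LAMA5 were 70.8% to 82.8% G or C, against a median of 58% over all windows. Those of ITGB1, ITGB5 and ITGAV were picked for matches to mostly GC-rich motifs, while the 58% is over unpicked windows. No conclusion is therefore drawn from this contrast. The other window of ITGB1 and of ITGAV held 0 of the 3 motifs, and the other windows of ITGB5 held 2 and 0 GC boxes. A match is a description of letters and not a measured binding site.

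Of the 22 tested members 4 rose and 6 fell with KLF11 siRNA, and 12 did not pass. The 4 that rose were ITGB1, ITGA3, ITGAV and ITGA1, and the 6 that fell were LAMA1, ITGB4, ITGB5, ITGA6, LAMA5 and ITGA2B. The called share was 45.5% of the tested members (18.2% higher, 27.3% lower), beside a background of 35.2% of all tested genes (13.5% higher, 21.7% lower). The members' median log2 change was -0.31, beside -0.11 for all tested genes. In 19 members the 2 groups had no overlap, 6 of them higher and 13 lower with KLF11 siRNA, beside 73.4% of all tested genes (28.9% and 44.5%). Called with a log2 change of at least 1 were ITGA3 upward and LAMA1, ITGB4 and ITGA2B downward, beside 4.67% and 8.26% of all tested genes. The summed FPKM of all 38 members was 1115 and 1092 in control and 1017 and 1084 in KLF11 siRNA libraries, both of the latter below both controls. Every call was lost when either control library was left out. In those fits the spread was taken from the KLF11 siRNA pair alone. Then limma called 0 members and 0 of all genes, while 7 or 9 members had an unadjusted p under 0.05, and the 10 called members kept their sign. The smallest adjusted p of any member in those fits was 0.0805. Without KLF11 siRNA replicate 1 or 2 there were 7 or 13 called members. With the replicate number as a block 7 members were called, 2 higher and 5 lower. With no filter, where p-values were adjusted over 34232 genes, 4 members were called, and ITGB5 (adjusted p = 0.0502), ITGB4 (adjusted p = 0.0588), ITGA2B (adjusted p = 0.110) and ITGA1 (adjusted p = 0.111) were among those lost.

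**Figure D1:**
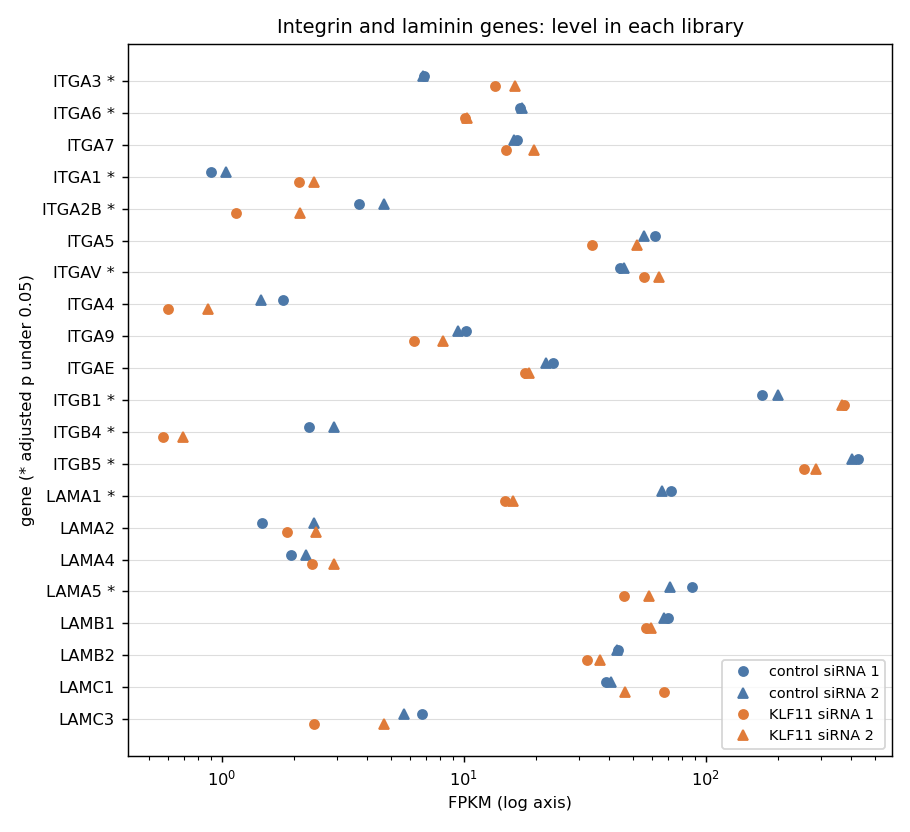
FPKM of 21 of the 22 tested integrin and laminin genes (log axis) in the 2 control siRNA libraries (blue) and the 2 KLF11 siRNA libraries (orange), circles for replicate 1 and triangles for replicate 2. ITGB5 and ITGB1 lie far right of the other genes and exchange places between the groups, and LAMA1 drops from 65.9 to 72.1 FPKM in the controls to 14.8 to 15.96 FPKM.

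Among the beta subunits, nearly all of the signal came from ITGB5 and ITGB1. ITGB1 encodes the beta subunit shared by the largest number of integrins, including the receptors for collagen, fibronectin and laminin. It measured 170 and 199 FPKM in the controls against 373 and 365 FPKM with KLF11 siRNA. Both KLF11 siRNA libraries were well above both controls, and the group means stood at 185 ± 20.3 and 369 ± 5.93 FPKM (SD, n = 2 each). The rise was 2.00-fold, with a log2 change of 1.00 (SE 0.10, adjusted p = 0.00476, limma). The processed pseudogene ITGB1P1 is a near copy of part of this gene, and the deposited values assign it 31.3 and 12.4 FPKM in the controls against 35.0 and 48.5 FPKM with KLF11 siRNA. ITGB1 and ITGB1P1 together gave 202 and 212 against 408 and 413 FPKM, a ratio of 1.99. Thus the replicates lay closer together in the sum than in ITGB1 alone.

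ITGB5 encodes a beta subunit that pairs with ITGAV to bind vitronectin. It was the highest of all members in the controls, at 425 and 403 FPKM, and measured 255 and 287 FPKM with KLF11 siRNA. Both KLF11 siRNA libraries were lower than both controls (1.53-fold lower, log2 change -0.61, SE 0.10, adjusted p = 0.0106, limma). ITGB1 made up 28.4% and 32.8% of the summed beta subunit FPKM in control and 59.1% and 55.7% in KLF11 siRNA libraries. ITGB5 went the other way, from 70.9% and 66.4% to 40.4% and 43.8%. The ratio of ITGB1 to ITGB5 was 0.401 and 0.494 in control and 1.46 and 1.27 in KLF11 siRNA libraries, so the order of the 2 genes was opposite in the 2 groups. The sum over the 8 beta subunits was 599 and 608 against 631 and 654 FPKM.

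ITGB4, whose product pairs with that of ITGA6 in hemidesmosomes of epithelial cells, was low and fell. Its values were 2.30 and 2.90 FPKM in the controls against 0.57 and 0.69 FPKM with KLF11 siRNA. The groups were clearly apart (4.13-fold lower, log2 change -1.14, adjusted p = 0.0136, limma), although all values were under 3 FPKM. The KLF11 siRNA mean of ITGB4 was 0.63 FPKM, so it reached the filter only through the controls. The other 5 beta subunits stayed under the filter. ITGB8 was at 0.54 and 0.68 against 0.91 and 1.18 FPKM, ITGB7 at 0.33 and 0.24 against 0.51 and 0.55 FPKM and ITGB3 at 0.13 and 0.20 against 0.31 and 0.35 FPKM. ITGB2, the beta subunit of leukocyte integrins, was at 0.27 to 0.68 FPKM and ITGB6 at 0 to 0.67 FPKM.

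Of the laminin-binding alpha subunits ITGA3 rose, ITGA6 fell and ITGA7 did not pass. ITGA3 encodes the alpha subunit of an integrin that binds laminins with the LAMA5 or LAMA3 chain. It rose from 6.84 and 6.80 to 13.5 and 16.3 FPKM. Both KLF11 siRNA libraries were above the controls, which were almost equal (2.18-fold higher, log2 change 1.02, SE 0.13, adjusted p = 0.00711, limma). ITGA6, a laminin receptor subunit that is also used as a surface marker of stem cells, fell from 17.1 and 17.4 to 10.1 and 10.3 FPKM. Replicates of ITGA6 were nearly equal within each group (1.68-fold lower, log2 change -0.70, SE 0.10, adjusted p = 0.00888, limma). ITGA7, which is known from muscle as a laminin receptor subunit, was at 16.5 and 16.2 FPKM in the controls against 14.9 and 19.5 FPKM with KLF11 siRNA. With KLF11 siRNA 1 library was below both controls and the other above them (adjusted p = 0.795, limma). The ratio of ITGA3 to ITGA6 was 0.400 and 0.392 in control and 1.33 and 1.57 in KLF11 siRNA libraries. As a class, ITGA3, ITGA6 and ITGA7 summed to 40.5 and 40.4 FPKM against 38.5 and 46.1 FPKM, so the controls lay between the KLF11 siRNA libraries.

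Of the alpha subunits whose integrins recognise the RGD motif of fibronectin and vitronectin, ITGAV rose and ITGA2B fell. ITGAV, which can pair with several beta subunits, went from 44.3 and 45.8 to 55.5 and 63.9 FPKM. The groups did not overlap, but the change was small (1.33-fold higher, log2 change 0.40, adjusted p = 0.0348, limma). The call of ITGAV was lost without KLF11 siRNA replicate 2 (adjusted p = 0.0649), with the replicate block (adjusted p = 0.0514), without a filter (adjusted p = 0.0902) and without a variance trend (adjusted p = 0.0721). ITGA5, whose product forms the main fibronectin receptor with that of ITGB1, was at 61.8 and 55.5 FPKM in the controls against 34.1 and 52.0 FPKM with KLF11 siRNA. KLF11 siRNA replicate 1 was far below the controls, and ITGA5 did not pass (log2 change -0.47, 95% confidence interval -0.99 to 0.06, adjusted p = 0.135, limma). Leaving out KLF11 siRNA replicate 2 gave ITGA5 an adjusted p of 0.0111, and leaving out replicate 1 gave 0.308. ITGA2B, the alpha subunit of the platelet fibrinogen receptor, fell from 3.69 and 4.71 to 1.15 and 2.11 FPKM (2.58-fold lower, log2 change -1.001, adjusted p = 0.0310, limma). Without KLF11 siRNA replicate 1 its adjusted p was 0.0650. Its platelet partner ITGB3 was at 0.35 FPKM or less in every library. The megakaryocyte and platelet markers GP9, PF4 and GP1BA were under a mean of 1 FPKM and PPBP was listed at 0. The platelet and endothelial markers, 5 of 11 of which reached 1 FPKM, summed to 57.4 to 61.7 FPKM in the controls and 34.4 to 36.2 FPKM with KLF11 siRNA, and their part in the fall of ITGA2B was not tested. That list gave 2 called lower, EGFL7 and VWF, and 2 called higher, TEK and ESAM, and without EGFL7 it summed to 22.0 and 20.4 against 23.1 and 18.0 FPKM. TEK and ESAM were under 1 FPKM in both controls and reached the filter only through the KLF11 siRNA libraries. ITGA8 was at 0.07 to 0.41 FPKM.

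ITGAV made up 23.5% and 25.2% of the summed alpha subunit FPKM in control and 34.9% and 32.2% in KLF11 siRNA libraries. ITGA5 made up 32.8% and 30.6% in control and 21.4% and 26.2% in KLF11 siRNA libraries. So the most abundant alpha subunit was ITGA5 in both controls and ITGAV in both KLF11 siRNA libraries. The class that binds RGD as a whole held 58.5% ± 0.105 in control and 58.4% ± 1.72 in KLF11 siRNA libraries (SD, n = 2 each), a difference smaller than the spread between replicates. Without the leukocyte alpha subunits in the total these shares were 66.9% ± 0.316 and 65.5% ± 1.07, a difference of -1.41 percentage points that is larger than either SD. The 18 alpha subunits summed to 188 and 182 FPKM against 159 and 198 FPKM, and the groups overlapped.

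**Figure D2:**
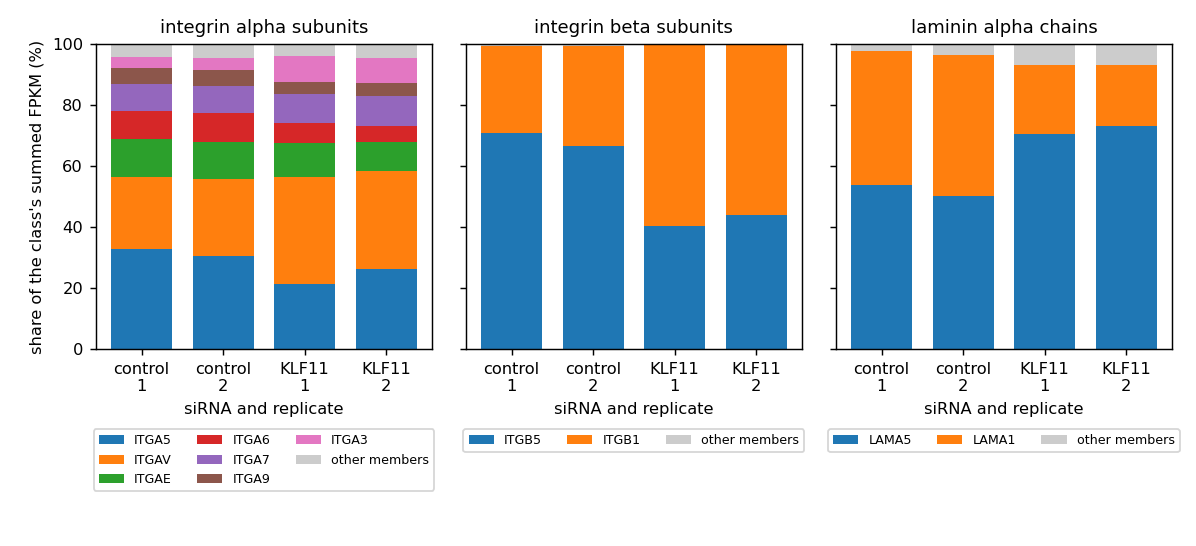
Share of the summed FPKM of each class (vertical axis, percent) taken by its main members in each of the 4 libraries, for integrin alpha subunits, integrin beta subunits and laminin alpha chains, with the remaining members in grey. ITGB1 holds 28.4% and 32.8% of the beta total in the controls and 59.1% and 55.7% with KLF11 siRNA, and LAMA1 holds 43.9% and 46.2% of the laminin alpha total in the controls and 22.6% and 19.9% with KLF11 siRNA.

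Collagen-binding alpha subunits were scarce in all libraries, and their summed level was higher with KLF11 siRNA. ITGA1 rose from 0.90 and 1.04 to 2.08 and 2.40 FPKM (2.31-fold higher, log2 change 0.72, adjusted p = 0.0374, limma), and was the only one to reach the filter. Its control mean was 0.97 FPKM, so it reached the filter only through the KLF11 siRNA libraries. ITGA2 was at 0.40 and 0.35 against 1.29 and 1.73 FPKM, and ITGA11 at 0.13 and 0.13 against 0.57 and 0.77 FPKM. Neither had overlapping groups, and neither passed in a fit with no filter (adjusted p = 0.0751 and 0.0698, limma). ITGA10 stayed between 0.13 and 0.28 FPKM. The 4 genes summed to 1.56 and 1.80 FPKM in the controls against 4.17 and 5.16 FPKM with KLF11 siRNA, which was 0.91% and 2.61% of the alpha total on average. The call of ITGA1 was lost in every fit that left out a library (adjusted p 0.0557 to 0.181) and with the replicate block (adjusted p = 0.0708).

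ITGA9 and ITGA4, related alpha subunits that bind tenascin or VCAM1, did not pass. ITGA9 was at 10.2 and 9.45 against 6.26 and 8.18 FPKM (adjusted p = 0.102) and ITGA4 at 1.79 and 1.45 against 0.60 and 0.88 FPKM (adjusted p = 0.0829, limma). Both KLF11 siRNA libraries were under both controls for each gene. ITGA9 passed when KLF11 siRNA replicate 2 was left out (adjusted p = 0.0327). ITGA4 passed in the fit without a variance trend (adjusted p = 0.0412). ITGAE, known as the alpha subunit of an intraepithelial lymphocyte integrin, was at 23.5 and 21.9 FPKM in the controls against 17.9 and 18.7 FPKM with KLF11 siRNA (log2 change -0.29, adjusted p = 0.0691, limma). It was the only leukocyte-type alpha subunit to reach the filter. ITGAL was at 0.43 to 1.00 FPKM, while ITGAD, ITGAM and ITGAX were at 0.12 FPKM or less. Of 15 leukocyte markers 13 were under a mean of 1 FPKM, with PTPRC among them and CD3D and CD3E listed at 0. The leukocyte list summed to 3.39 to 4.85 FPKM in the controls and 12.2 to 18.6 FPKM with KLF11 siRNA, where LCP1 alone was at 8.49 and 14.1 FPKM, and its part in these results was not tested. ITGB7, the partner of ITGAE on lymphocytes, did not exceed 0.55 FPKM.

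**Figure D3:**
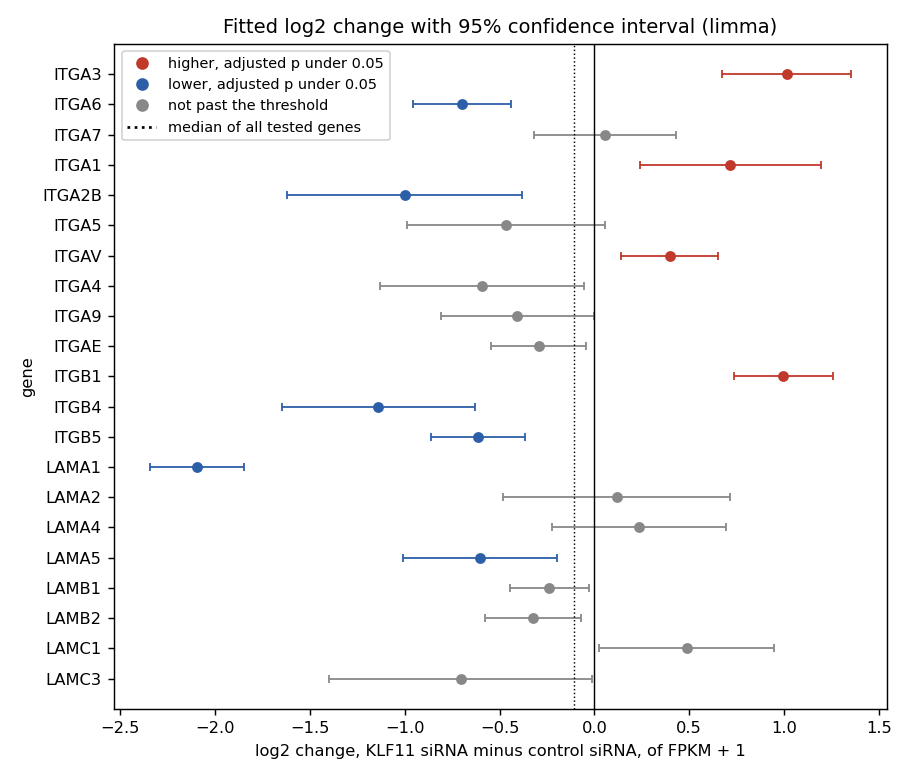
Fitted log2 change of FPKM + 1 (horizontal axis, KLF11 siRNA minus control siRNA) with 95% confidence intervals for 21 of the 22 tested genes, with the 4 that rose in red, the 6 that fell in blue and those not past the threshold in grey. LAMA1 at -2.10 lies apart from all others, and the dotted line marks the median of all tested genes at -0.11.

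Among the 22 tested members LAMA1 had the largest fitted log2 change. It encodes the alpha chain of the laminin of the earliest embryonic basement membranes. LAMA1 fell from 72.1 and 65.9 FPKM to 14.8 and 15.96 FPKM. Both KLF11 siRNA libraries were far below both controls, and the group means stood at 69.0 ± 4.39 and 15.4 ± 0.841 FPKM (SD, n = 2 each). The fall was 4.49-fold, with a log2 change of -2.10 (SE 0.10, adjusted p = 0.00136, limma), and it ranked 180 among the falls of the 15320 tested genes. LAMA5, the alpha chain most widely found in adult epithelial basement membranes, fell from 88.2 and 71.4 to 46.0 and 58.6 FPKM. Its groups did not overlap, though replicates were far apart in both (1.53-fold lower, log2 change -0.60, adjusted p = 0.0388, limma). LAMA5 no longer passed under median-of-ratios scaling (adjusted p = 0.0541), without a variance trend (adjusted p = 0.0685), without a filter (adjusted p = 0.124), with the replicate block (adjusted p = 0.0602) and when KLF11 siRNA replicate 1 was left out (adjusted p = 0.112).

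LAMA1 and LAMA5 together dominated the laminin alpha chains in all libraries. The ratio of LAMA1 to LAMA5 was 0.817 and 0.923 in control and 0.321 and 0.272 in KLF11 siRNA libraries. LAMA1 held 43.9% and 46.2% of the summed alpha chain FPKM in control and 22.6% and 19.9% in KLF11 siRNA libraries. LAMA4, a chain of vessel and muscle laminins, was at 1.94 and 2.23 against 2.37 and 2.90 FPKM (adjusted p = 0.355), and LAMA2, the chain of muscle and nerve laminins, at 1.47 and 2.40 against 1.87 and 2.45 FPKM (adjusted p = 0.720, limma). LAMA3, the alpha chain of epidermal laminin, was at 0.49 and 0.61 against 0.23 and 0.16 FPKM, under the filter. The summed epithelial, early endoderm, and platelet and endothelial markers were lower in the same libraries as LAMA1 and LAMA5, with the exceptions given above. The summed pluripotency, mesenchymal, osteoblast and leukocyte markers were higher there, although the mesenchymal sum without VIM was lower. The part of these markers in the falls of LAMA1 and LAMA5 was not tested.

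No laminin beta or gamma chain passed the test. LAMB1, the beta chain that joins LAMA1 in early laminin, was at 69.7 and 67.3 against 56.7 and 59.4 FPKM (log2 change -0.24, 95% confidence interval -0.44 to -0.03, adjusted p = 0.0757, limma). LAMB2, the beta chain of synaptic and kidney laminins, was at 43.6 and 43.2 against 32.2 and 36.8 FPKM (log2 change -0.33, 95% confidence interval -0.58 to -0.07, adjusted p = 0.0563, limma). The groups did not overlap for either gene, and LAMB2 passed with TPM scaling (adjusted p = 0.0378) and with a filter of 5 FPKM (adjusted p = 0.0495). LAMB3 and LAMB4 were at 0.32 FPKM or less. The share of LAMB1 in the beta chains was 61.2% and 60.8% in control and 63.6% and 61.5% in KLF11 siRNA libraries.

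LAMC1, the gamma chain of most laminins, was at 38.9 and 40.5 FPKM in the controls against 67.5 and 46.4 FPKM with KLF11 siRNA. Both KLF11 siRNA libraries were above the controls but unlike each other (log2 change 0.49, 95% confidence interval 0.02 to 0.95, adjusted p = 0.0928, limma). Without KLF11 siRNA replicate 2 its adjusted p was 0.00801, and without replicate 1 it was 0.154. LAMC3, a gamma chain of brain and retina laminins, was at 6.71 and 5.69 against 2.41 and 4.69 FPKM (limma, adjusted p = 0.0996), and leaving out KLF11 siRNA replicate 2 gave 0.0139 as its adjusted p. The alpha chains summed to 164 and 143 FPKM in the controls against 65.2 and 80.1 FPKM with KLF11 siRNA, and the beta chains to 114 and 111 against 89.1 and 96.5 FPKM. The gamma chains summed to 49.2 and 49.1 against 72.6 and 54.5 FPKM. The ratio of summed alpha to summed gamma chains was 3.34 and 2.90 in control and 0.898 and 1.47 in KLF11 siRNA libraries, and the groups did not overlap in any of the 3 sums.

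In all, 16 members were under the filter, the highest single value being the 1.73 FPKM of ITGA2. In a fit with no filter limma called 0 of them, and 3 had an unadjusted p under 0.05 (ITGA11, ITGA2 and LAMA3). Rows named as antisense or divergent transcripts of members were low. They reached at most 0.28 FPKM for ITGB1-DT, ITGB2-AS1, ITGB5-AS1, LAMA5-AS1 and LAMC1-AS1 and 1.89 to 2.92 FPKM for ITGA9-AS1. Reads of ITGA9 and ITGA9-AS1 cannot be told apart where the transcripts overlap, since the strand setting is not given in the sources used here.

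The other genes of the pathway were described from lists of partners and ligands, which were chosen with earlier results of these data known. The shares are therefore a description, and no list was tested. Each list's count is set beside the 13.5% higher and 21.7% lower, and its median beside the -0.11, of all tested genes. Basement membrane partners of laminin gave 2 higher and 8 lower of 15 tested (13.3% and 53.3%, median log2 change -0.61). Type IV collagen chains were among them: COL4A1 fell from 138 and 134 to 52.5 and 55.3 FPKM (2.52-fold, adjusted p = 0.00235), COL4A2 fell 2.16-fold, COL4A5 1.80-fold and COL4A6 4.14-fold. NID2, a nidogen that bridges laminin to type IV collagen, rose from 1.11 and 0.60 to 4.22 and 3.40 FPKM (adjusted p = 0.0112, limma). The control mean of NID2 was 0.855 FPKM, so it reached the filter only through the KLF11 siRNA libraries. NID1, its relative, did not pass, at 11.4 and 10.9 against 9.10 and 15.7 FPKM.

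Genes of the adhesion plaque, which ties integrin tails to actin, gave 10 higher and 6 lower of 37 tested (27.0% and 16.2%, beside 13.5% and 21.7% of all tested genes, median log2 change 0.12). VCL, which encodes the actin linker vinculin, rose from 121 and 115 to 236 and 264 FPKM (2.12-fold, adjusted p = 0.00353). NEDD9 and BCAR1, which encode docking proteins of 1 family, rose 3.34-fold and 2.17-fold. PXN, which encodes the scaffold paxillin, rose 2.01-fold, and LIMS1, the partner of integrin-linked kinase, 2.17-fold. With KLF11 siRNA these 5 plaque genes, which had the smallest p of the list, were higher in both libraries, as was ITGB1. The 6 called lower were PARVB, PTK2B, TNS3, KANK1, SRC and SHARPIN, from 2.36-fold for PARVB to 1.57-fold for SHARPIN. The other 21 tested plaque genes did not pass.

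Ligands of integrins other than laminins gave 12 higher and 5 lower of 21 tested (57.1% and 23.8%, beside 13.5% and 21.7%, median log2 change 0.61). THBS2, a thrombospondin, rose from 0.49 and 0.35 to 11.5 and 7.43 FPKM (22.6-fold, adjusted p = 0.00334, limma), and FBN1, a microfibril protein, rose 6.10-fold. The control mean of THBS2 was 0.42 FPKM, so it reached the filter only through the KLF11 siRNA libraries. The same held for TGFB2, also called higher, with a control mean of 0.36 FPKM. SPP1, CTGF and CYR61, all ligands of ITGAV integrins, also rose (68.2-fold, 10.9-fold and 6.39-fold). SPP1 was at 2.31 and 2.76 FPKM in the controls against 247 and 99.1 FPKM with KLF11 siRNA, and its fold was 39.1 when KLF11 siRNA replicate 1 was left out. FN1, the fibronectin gene, did not pass, at 234 and 218 against 198 and 181 FPKM (adjusted p = 0.0854, limma). FN1 was named after its values were seen, as were NID1 and TGFB2, and none of them is among the 5 named by rule from its list.

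Receptors for laminin other than integrins, with hemidesmosome genes, gave 2 higher and 5 lower of 16 tested (12.5% and 31.3%, beside 13.5% and 21.7%, median log2 change 0.01), which is near the background. DAG1, which encodes dystroglycan, fell from 63.1 and 58.2 to 47.1 and 42.9 FPKM (1.35-fold, adjusted p = 0.0250), and POMT1, an enzyme that starts the sugar chain through which dystroglycan binds laminin, fell 1.86-fold. PLEC, a hemidesmosome linker that binds the ITGB4 protein, fell 1.72-fold and SGCE, a sarcoglycan, 1.41-fold, while SDC1, a syndecan, rose 1.51-fold. Membrane proteins that associate with integrins gave 4 higher and 1 lower of 10 tested (40.0% and 10.0%, beside 13.5% and 21.7%, median log2 change 0.28). CD9, a tetraspanin that binds integrins, rose from 55.4 and 52.1 to 187 and 162 FPKM (adjusted p = 0.00235), CAV1 9.70-fold, CD47 2.10-fold and PLAUR, the urokinase receptor, 1.93-fold, while the tetraspanin CD63 fell 1.65-fold. Each of the 5 lists held genes of both directions.

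**Figure D4:**
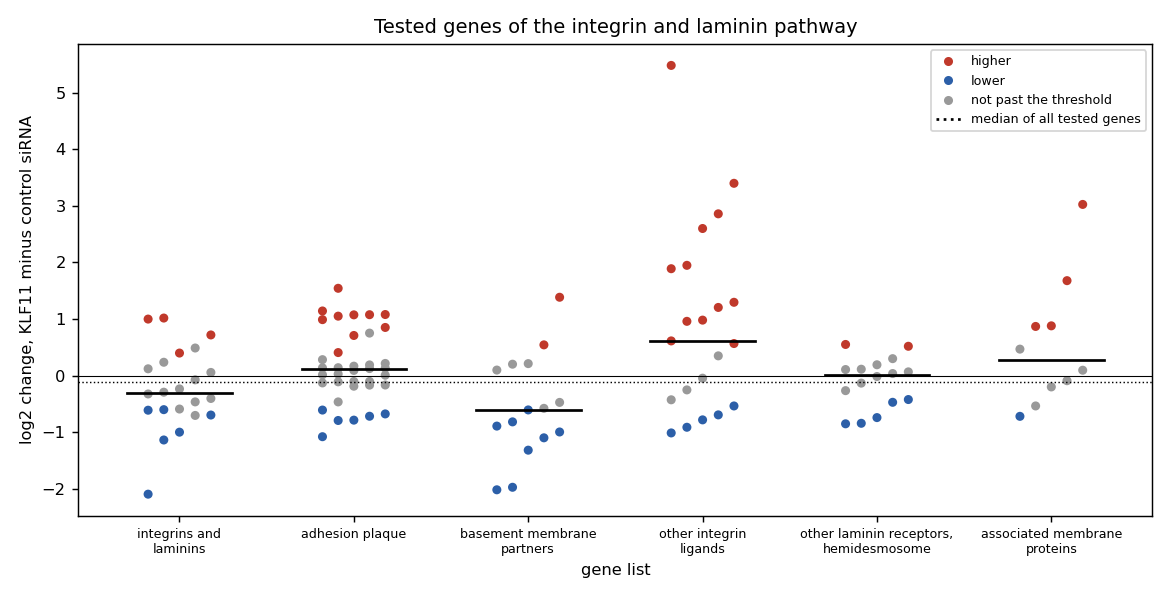
Fitted log2 change (vertical axis, KLF11 siRNA minus control siRNA) of the tested integrin and laminin genes and of 5 lists of partner genes, each point 1 gene, red for higher, blue for lower and grey for not past the threshold. Black bars are medians, at -0.31 for integrins and laminins, -0.61 for basement membrane partners and 0.61 for other ligands, and the dotted line is the median of all tested genes at -0.11.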

How the data were processed

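The authors deposited FPKM values with 2 decimals for 57905 gene identifiers, 1 column per library, and the 4 column names gave the sample of each, with 0 columns unmatched. RSEM 1.3.1, Trim Galore 0.5.0 and build hg19 (GRCh37) were used, per the submitters' processing notes. For the aligner, annotation release and strand setting the entry is: not given in the sources used here. RSEM splits reads among near-identical transcripts, which touches ITGB1 and its pseudogene. FPKM divides by the library's fragments, so abundant genes that change can shift all others, and no depth can be had from it. The libraries' FPKM summed to 577849 to 604498.

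Genes with a mean of at least 1 FPKM (15320, with 22 members) went into limma 3.58.1 under R 4.3.3 (mean-variance trend, 2 groups, no block) on log2(FPKM + 1). The test was checked on simulated data. Those data had independent noise and few changed genes, unlike these libraries, so the check does not cover shifts in FPKM composition. With 2 against 2 libraries an exact permutation test cannot go below p = 0.333, so shares and ratios are given without a test. Replicates correlated at 0.982 and 0.976 (across genes, on the log2 scale; genes are not independent), and none was counted as a duplicate.

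Members, lists and tests were chosen with earlier results of these data known. Every member is counted, but 1 tested member is not reported here by name. From each partner list up to 5 called genes with the smallest p are named, and from the plaque list also the 6 called lower. Promoter sequences are from RefSeq (GRCh38.p14) and were matched by symbol, and 12 members had none in the table, among them ITGA3, ITGA7, ITGA9, ITGAD, ITGAL, ITGAX, ITGB2, ITGB3, ITGB4, LAMA1 and LAMC3. The printed window of a gene is the one with the most motif matches. A planned comparison of protein sequences was not done. Alternatives were pseudocounts of 0.1 and 5, no filter, a filter of 5 FPKM, TPM, median-of-ratios and quantile scaling, no trend, a replicate block, leaving out 1 library at a time, and shares without the leukocyte alpha subunits. Figures were drawn with matplotlib 3.10.9.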

Additional observations from a re-analysis of the deposited data

How the results depend on the processing

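Members called under all 8 alternatives that kept every library and used no block were ITGA3, ITGA6, ITGB1 and LAMA1, and the 10 called members kept their sign in every fit that tested them. Median-of-ratios and quantile scaling moved the median log2 change of all genes by 0.10 and 0.12, and the split of calls to 2728 higher and 2664 lower and to 2657 and 2664, against 2071 and 3329. With no filter the calls were 887 higher and 1251 lower over all genes, 2 and 2 among members, 1 and 1 among alpha subunits, 0 lower beta subunits and 1 lower laminin chain. The partner lists then gave 3 lower plaque genes, 1 higher and 4 lower basement membrane genes, 2 lower ligands, 0 higher and 0 lower other laminin receptors and 2 higher associated proteins. A filter of 5 FPKM gave 1 lower alpha subunit, 1 lower beta subunit and 1 higher basement membrane gene, and 1 laminin chain was lower with median-of-ratios scaling and without a trend.

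The replicate numbers share no stated animal, day or culture, and deviations of same-numbered libraries correlated at -0.071. With the replicate block 1 alpha subunit and 2 members were higher, 1 laminin chain was lower and 1 other laminin receptor was higher, and over all genes 1707 were higher and 2644 lower.

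With a library left out (a lone library is assumed to vary like the other group) counts ran from 0 to 2291 higher and 0 to 3813 lower genes, 0 to 3 and 0 to 10 members, 0 to 2 and 0 to 4 alpha subunits, 0 to 1 and 0 to 2 beta subunits and 0 to 1 and 0 to 4 laminin chains. Partner lists ran from 0 to 9 and 0 to 5 (plaque), 0 to 2 and 0 to 10 (basement membrane), 0 to 12 and 0 to 6 (ligands), 0 to 1 and 0 to 4 (other laminin receptors) and 0 to 4 and 0 to 1 (associated proteins). Both zero-call fits left out a control library.

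Only genes that had not passed changed sign. LAMA2 ran from -0.11 (without control siRNA replicate 1) to 0.35, and was -0.01 without KLF11 siRNA replicate 2. ITGA7 ran from -0.13 without that library to 0.24. Leaving out the leukocyte alpha subunits moved the gain of ITGA3's share from 4.65 to 5.14 percentage points. The cause of these differences was not tested.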
